A study of Mus musculus with 55 samples.

Results

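The comparison sets untreated CTCF-AID cells in mitosis against CCNA-GFP cells in mitosis, which are separate lines of mouse embryonic stem (ES) cells. Every gene present in both expression tables was taken, which gave 9574 genes of the 10574 in either table. The values are pre-mRNA levels from ribosome-depleted total RNA, in TPM, a unit corrected for transcript length and library total, and 6 of the 55 libraries of the series enter, 3 independent replicates from each line. The values of each line come from a table of its own, so line, table and batch cannot be told apart in any result.

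Both lines derive from E14Tg2a, a line of strain 129/Ola, and both were grown in serum with LIF. CCNA-GFP cells carry cyclin A fused to GFP, a reporter of cell cycle position. CTCF-AID cells are one clone, in which CTCF is fused to an auxin-inducible degron, and the libraries compared here had no auxin (indole-3-acetic acid, IAA). All 6 libraries came from cells held for 4 h in 10 µM RO-3306, an inhibitor of the mitotic kinase CDK1, and then for 4 h in 50 ng/ml nocodazole, a microtubule poison, before mitotic cells were shaken off. The other libraries of the series include asynchronous cells of both lines and CTCF-AID cells given 0.5 mM IAA.

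CTCF is a zinc finger protein that binds DNA, stops cohesin as it extrudes loops and sets the borders of chromosome domains. A degron tag makes the protein degradable once auxin reaches the plant receptor Tir1, and tagged cells without auxin serve as the undegraded control. ES cell lines kept in culture for long can also differ in chromosome number, in imprinting and in the state between naive and formative pluripotency.

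Ctcf itself was higher in the CTCF-AID line. The gene (chr8:105636568-105682922 in mm10) had 4.96, 5.997 and 5.27 TPM in the 3 CTCF-AID libraries and 3.50, 3.80 and 3.39 TPM in the 3 CCNA-GFP libraries. The lines did not overlap, and the log2 difference (CTCF-AID minus CCNA-GFP, on log2(TPM + 1) after every library was set to 1 total) was 0.49 (SE 0.08, limma adjusted p = 0.00914). The median of all genes on chromosome 8 was itself 0.21, and 0.28 for those with a mean of at least 1 TPM. This scale understates differences of low genes, so the value of Ctcf and these medians are not at like levels. Ccna2 encodes cyclin A2, the cyclin of S phase and G2. It had 1.73, 0.928 and 1.55 TPM in CTCF-AID and 1.45, 1.14 and 1.33 TPM in CCNA-GFP, so that the lines overlapped, with a log2 difference of 0.05 (SE 0.14, limma adjusted p = 0.834). Of the 12 tested genes for CTCF, cohesin and their partners together with cyclin A2, only Ctcf passed the test. That is 8.33% higher and none lower, beside 16.1% and 13.4% over all genes, so the list held no excess of calls.

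Both lines had pre-mRNA of pluripotency genes. Pou5f1, the core pluripotency factor, had 10.1, 7.02 and 9.05 TPM in CTCF-AID against 11.3, 6.51 and 11.6 TPM in CCNA-GFP, which overlapped (log2 difference -0.13, limma adjusted p = 0.71). Nanog had 5.06, 5.36 and 6.999 TPM in CTCF-AID against 4.23, 5.02 and 4.95 TPM in CCNA-GFP. Its libraries did not overlap, but the log2 difference of 0.24 did not pass the test (limma adjusted p = 0.198), and it did so with the replicate numbers as a block (limma adjusted p = 0.056). Sox2 was not analysed here. Few markers of differentiated cells were among the genes tested: 4 of 18 symbols for primitive endoderm, 6 of 14 for mesendoderm, 3 of 15 for neuroectoderm, 5 of 14 for trophectoderm and 4 of 20 for fibroblasts and feeders. A gene was tested only if both tables listed it, so a marker listed for 1 line alone was left out. These counts therefore cannot show that either line lacked differentiated cells. Over all genes tested, 16.1% were higher and 13.4% lower. Primitive endoderm markers had 2 members lower, mesendoderm markers 1 higher and 1 lower, and neuroectoderm markers 1 higher, Tubb3 on chromosome 8, with summed levels for the last list of 6.02 to 7.89 TPM in CTCF-AID and 3.57 to 4.85 TPM in CCNA-GFP. Trophectoderm and fibroblast lists had no called member, and the summed level of the fibroblast genes was 6.40 to 6.79 TPM in CTCF-AID and 5.45 to 5.76 TPM in CCNA-GFP. In bulk RNA of this kind, fewer cells of a type and less RNA per cell cannot be told apart.

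Across all 9574 genes, 1541 were higher in CTCF-AID (16.1% of genes tested) and 1279 were lower (13.4%), at an adjusted p under 0.1 and a log2 difference over 0.2 in either direction. The study used the same cutoffs for its own pre-mRNA comparisons, but on DESeq2 fold changes of counts. It also required them in asynchronous cells or in more than 1 sample after mitosis, so the criteria are not alike. Most differences were small on the log2(TPM + 1) scale, which understates the change of low genes. On it 91.4% of genes lay within 0.5, and 14 of the higher and 25 of the lower calls exceeded 1. The 3 CTCF-AID libraries all lay above the 3 CCNA-GFP libraries for 2179 genes (22.8%) and all below for 1761 genes (18.4%). Without the rescaling, 4133 genes were higher and 296 lower, since the deposited totals differed between the lines. The count of lower genes was 831 without CTCF-AID replicate 3, 824 without CCNA-GFP replicate 1 and 798 without CCNA-GFP replicate 3.

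The higher genes were concentrated on a few chromosomes. Chromosomes 1, 8 and 11 hold 1899 of the tested genes (19.8%) and carried 878 of the 1541 higher calls (57.0%). On those chromosomes 46.2% of genes were higher and 2.79% lower, whereas of the 7664 genes placed elsewhere 8.61% were higher and 16.0% lower. Chromosome 14 added 99 higher genes of 318 (31.1%). The balance elsewhere depended on the scaling. With chromosomes 1, 8, 11 and 14 left out, 529 genes were higher and 1111 lower, and once the remaining genes had been rescaled to a common total, 953 were higher and 707 lower.

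The median log2 difference was 0.28 on chromosome 1 (258 of 506 genes higher, 15 lower), 0.21 on chromosome 8 (224 of 534 higher, 19 lower), 0.23 on chromosome 11 (396 of 859 higher, 19 lower) and 0.10 on chromosome 14 (29 lower). For the 16 other chromosomes apart from Y, the medians ran from -0.06 to 0.02 and the share of genes higher from 5.33% to 14.6%. For each of chromosomes 1, 8, 11 and 14 the medians of the 3 CTCF-AID libraries lay above those of the 3 CCNA-GFP libraries, and the exact permutation test over libraries gave p = 0.1 (two-sided, the smallest that 3 against 3 allows). The same p was reached in the opposite direction, on chromosomes 2, 3, 4, 6, 7, 9, 10, 12, 15, 16, 19 and Y, where apart from Y the medians lay closer together. On chromosome 2, for example, the library medians, centred on each gene's mean, lay between -0.03 and -0.02 in CTCF-AID and between 0.01 and 0.03 in CCNA-GFP. Without CTCF-AID replicate 2 the median of chromosome 14 was 0.060, and without CCNA-GFP replicate 3 it was 0.08.

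**Figure D1:**
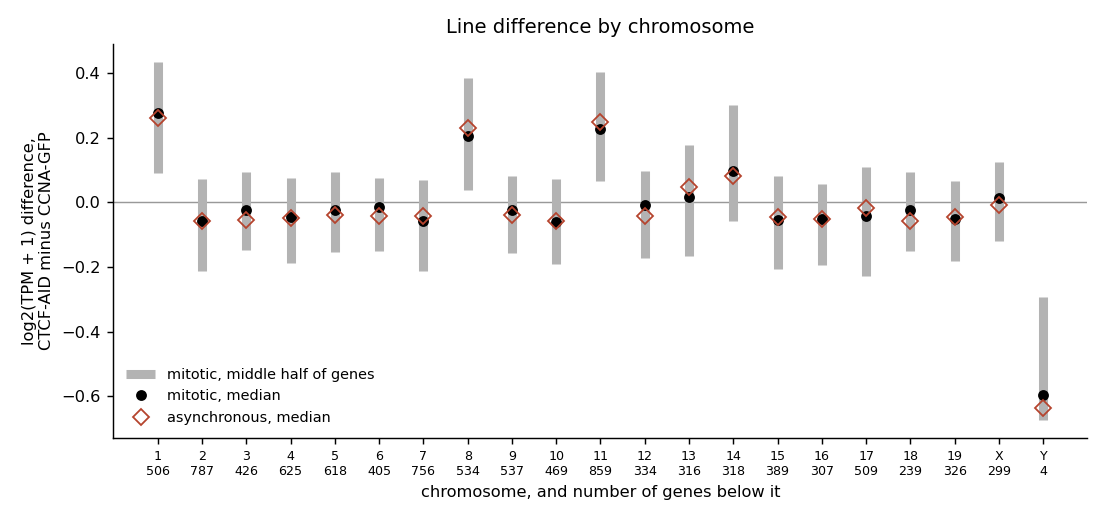
Log2(TPM + 1) difference (CTCF-AID minus CCNA-GFP, vertical axis) of the genes of each chromosome, with grey bars from the lower to the upper quartile and black dots at the median in mitosis, and open diamonds at the median in asynchronous cells. Chromosomes 1, 8, 11 and 14 stand above the other autosomes at both stages, with mitotic medians of 0.28, 0.21, 0.23 and 0.10.

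The shift was also expressed as a ratio. The ratio of the lines' mean TPM, taken as the median over genes with at least 1 TPM and divided by the same median over the remaining autosomes, was 1.51 on chromosome 1, 1.41 on chromosome 8, 1.47 on chromosome 11 and 1.20 on chromosome 14. In asynchronous cells, whose libraries are separate, the ratios were 1.47, 1.44, 1.45 and 1.15 in the same order. For the other 16 chromosomes the mitotic ratio lay between 0.943 and 1.07. Their asynchronous ratio lay between 0.984 and 1.13, with the highest value on chromosome 13, close to that of chromosome 14. DNA copy number was not analysed here, and its part in the result was not tested.

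Each library showed the same split. Genes of chromosome 1 took 7.11%, 7.20% and 7.18% of the listed TPM in the mitotic CTCF-AID libraries and 5.43%, 5.21% and 5.20% in the mitotic CCNA-GFP libraries. Genes of chromosome 11 took 12.9%, 12.8% and 12.97% against 9.89%, 9.79% and 9.91%. The lines were far apart and their replicates close together on both chromosomes. Over all libraries of the series, at every stage, chromosome 1 took 6.77% to 7.33% in untreated CTCF-AID cells, 6.83% to 7.42% with IAA and 4.97% to 5.47% in CCNA-GFP cells. Chromosome 8 took 6.61% to 7.28%, 6.58% to 7.19% and 5.12% to 5.42% in the same groups, so no library of one line reached the range of the other.

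**Figure D2:**
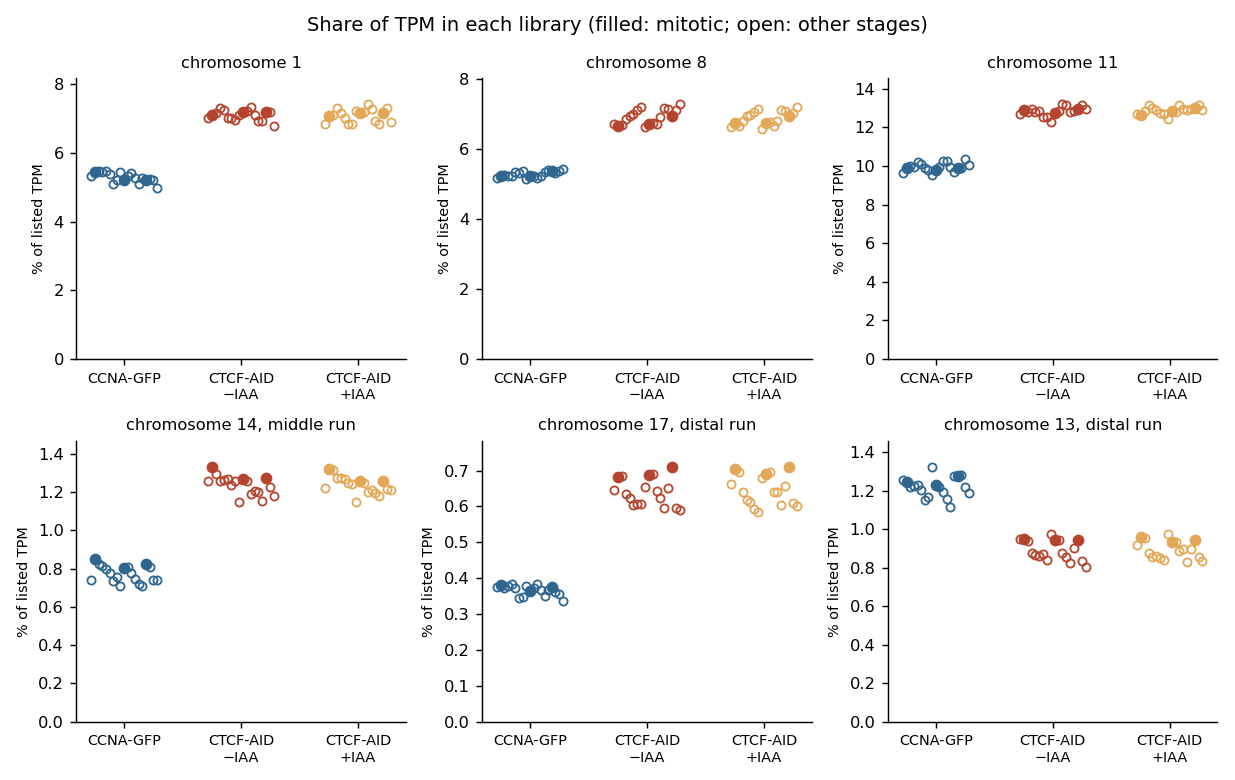
Share of the listed TPM (percent, vertical axis) on chromosomes 1, 8 and 11 and on 1 stretch each of chromosomes 14, 17 and 13, with 1 point per library, filled for mitosis and open for other stages. CCNA-GFP libraries form a range apart from CTCF-AID libraries with or without IAA in every panel, for chromosome 1 at 4.97% to 5.47% against 6.77% to 7.42%.

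The shift ran along chromosomes 1, 8 and 11 and was not confined to clusters of genes. In windows of 50 consecutive genes, the median exceeded 0.1 in 10 of 10 windows on chromosome 1 (0.18 to 0.39), in 11 of 11 on chromosome 8 (0.13 to 0.30) and in 16 of 17 on chromosome 11 (0.09 to 0.36). On chromosome 14 it did so in 3 of 6 windows. The remaining chromosomes had 148 windows with medians from -0.22 to 0.42, and 5 of them exceeded 0.1, of which 3 lay on chromosome 13, 1 on chromosome 17 and 1 on chromosome X.

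**Figure D3:**
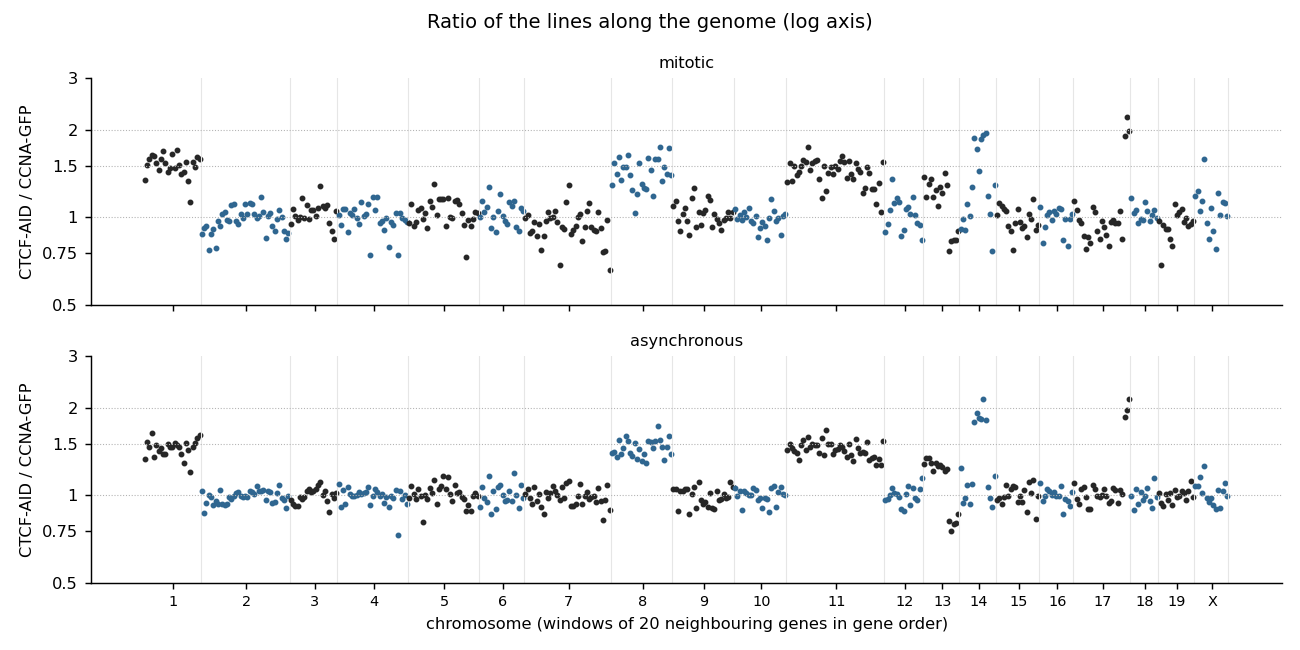
Median ratio of CTCF-AID to CCNA-GFP TPM (log axis, relative to the other autosomes) in windows of 20 neighbouring genes in gene order, in mitotic cells above and asynchronous cells below. Windows of chromosomes 1, 8 and 11 run from 1.04 to 1.75 in mitosis, those of the raised stretch of chromosome 14 from 1.45 to 1.94, those of the end of chromosome 17 from 1.90 to 2.20 and those of the end of chromosome 13 from 0.762 to 0.897.

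Windows of 20 genes placed 3 further stretches; these were picked after the values were seen and carry no test. On chromosome 14 (chr14:49004090-70351425), 79 of 120 genes were higher and 2 lower, with a ratio of 1.81 in mitosis and 1.86 in asynchronous cells. This stretch took 1.33%, 1.27% and 1.27% of the TPM in the CTCF-AID libraries and 0.849%, 0.803% and 0.821% in the CCNA-GFP libraries. At the distal end of chromosome 17 (chr17:64600736-87446935), 44 of 60 genes were higher and 1 lower, with ratios of 2.03 and 1.92. Its share was 0.681%, 0.687% and 0.710% in CTCF-AID against 0.382%, 0.363% and 0.375% in CCNA-GFP, the widest ratio of any stretch found. Both stretches separated every CTCF-AID library of the series from every CCNA-GFP library.

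Chromosome 13 divided into parts that moved in opposite directions. Over its first 11 windows (220 genes) 45 genes were higher and 8 lower, with a ratio of 1.26 in mitosis and 1.27 in asynchronous cells. Over the last 96 genes, from 81.7 Mb to 119.8 Mb, 1 gene was higher and 39 were lower, with a median log2 difference of -0.21 and ratios of 0.828 and 0.795. That distal stretch took 0.949%, 0.945% and 0.945% of the TPM in CTCF-AID and 1.25%, 1.23% and 1.28% in CCNA-GFP. The other 7 runs of windows below -0.1, on chromosomes 2, 7, 10, 15, 17 and 19, had ratios of 0.807 to 0.925 in mitosis and 0.910 to 1.02 in asynchronous cells. The run on chromosome 17 had the lowest of these ratios at both stages. Their genes were short, with median lengths of 6882 to 19760 bp where the median of all genes was 22570 bp. Across all genes, 18.5% of the shortest genes (10010 bp or less) were lower in CTCF-AID and 8.62% higher, and the part of gene length in these runs was not tested.

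Y-linked genes were split. Eif2s3y, a translation initiation factor subunit, had 3.52, 3.69 and 4.32 TPM in CTCF-AID and 5.43, 6.81 and 5.63 TPM in CCNA-GFP. Uty, a histone demethylase homologue, had 1.03, 1.48 and 1.63 against 2.56, 2.84 and 2.89 TPM. Ddx3y, an RNA helicase, had 0.658, 0.666 and 1.09 against 1.92, 1.75 and 1.97 TPM. All 3 were below CCNA-GFP in every library, with log2 differences of -0.52, -0.67 and -0.68 and limma adjusted p of 0.0145, 0.00699 and 0.00599. Zfy1, a zinc finger gene with a close copy on the same chromosome, went the other way: 0.658, 0.643 and 0.804 TPM in CTCF-AID against 0.427, 0.306 and 0.177 TPM in CCNA-GFP, a log2 difference of 0.39 (limma adjusted p = 0.0176). Reads from near-identical Y copies could have been divided differently between genes, so its level is uncertain.

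Of the 12 genes with the largest positive difference, 8 lay on chromosomes 1, 8 and 11. Tpp2 (chr1:43933647-44003000), a large cytosolic peptidase, had 7.39, 7.497 and 7.32 TPM in CTCF-AID and 2.69, 2.75 and 2.68 TPM in CCNA-GFP, a log2 difference of 1.18 (SE 0.06, limma adjusted p = 0.00137). Tex30, which lies nearby, had 4.08, 3.24 and 4.16 TPM against 1.11, 1.18 and 1.06 TPM (1.18). Jade2 on chromosome 11, a subunit of the HBO1 histone acetyltransferase complex, had 2.58, 2.57 and 2.37 TPM against 0.598, 0.568 and 0.442 TPM (1.19). Each of the 3 differed between the lines by far more than its replicates did, but they were named for the size of that difference.

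Other genes of this group work in mitochondria, transcription and transport. Slc25a4, the ADP/ATP carrier, differed by 1.12 and Taf5l, a subunit of the SAGA coactivator, by 1.09, both on chromosome 8. Dynll2, a dynein light chain, differed by 1.07 and Hormad2, a protein of the meiotic chromosome axis, by 1.12, both on chromosome 11. Calm2, 1 of the calmodulin genes, lies in the raised stretch of chromosome 17 (chr17:87433412-87446935). It had 6.75, 6.21 and 7.34 TPM in CTCF-AID and 2.74, 2.62 and 2.80 TPM in CCNA-GFP, a log2 difference of 1.06 (SE 0.08, limma adjusted p = 0.00193). The higher genes of this group that lay outside all of these regions were Rpl24 on chromosome 16, Wdr77 on chromosome 3 and Rbm4 on chromosome 19. Each of them overlaps another annotated gene on the same strand, so the division of reads is uncertain there.

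**Figure D4:**
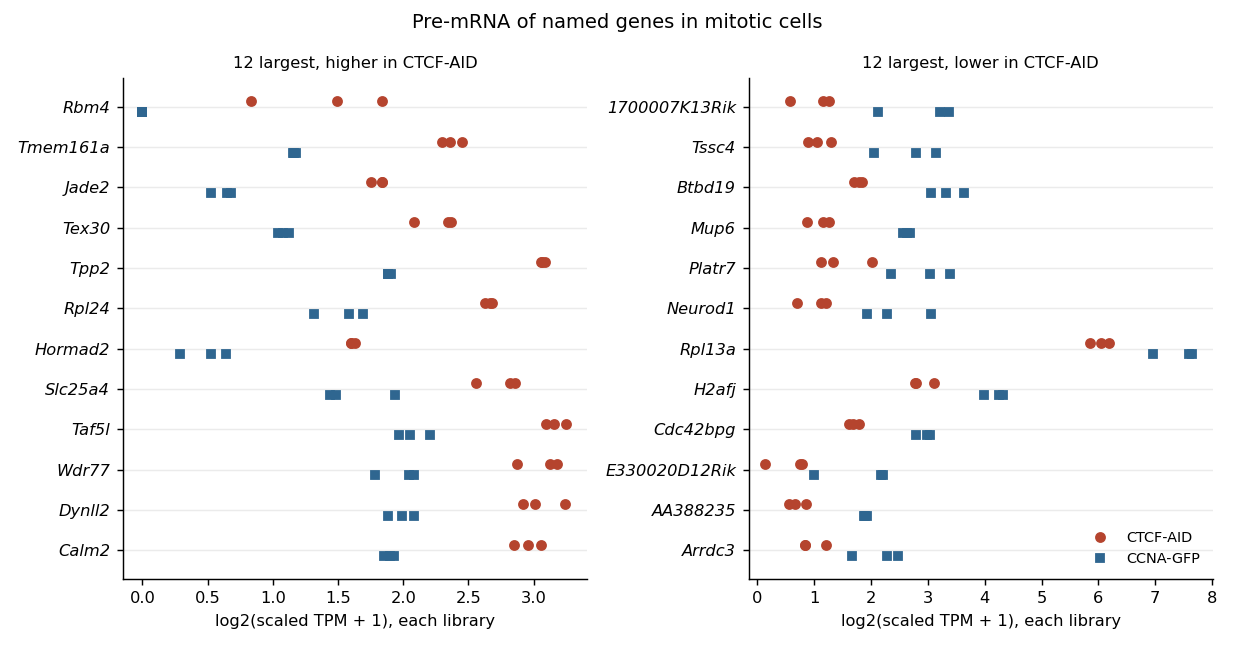
Log2(rescaled TPM + 1) of the 12 genes with the largest positive (left) and the 12 with the largest negative difference (right), with 1 point per mitotic library, circles for CTCF-AID and squares for CCNA-GFP. The 3 libraries of each line do not overlap for any gene shown, as the rule for naming them required.

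The genes with the largest negative difference were scattered over chromosomes. Btbd19 (chr4:117119219-117125725) had 2.44, 2.24 and 2.57 TPM in CTCF-AID and 11.4, 7.33 and 9.02 TPM in CCNA-GFP, with a log2 difference of -1.56 (SE 0.14, limma adjusted p = 0.00212). Mup6, of the major urinary protein family, had 1.22, 1.40 and 0.845 TPM against 5.47, 4.89 and 5.22 TPM (-1.53). The family has many near-identical copies, so that the level of a single member is uncertain. 1700007K13Rik on chromosome 2 had 1.39, 0.500 and 1.23 TPM against 9.40, 3.36 and 8.28 TPM, the most negative difference among the called genes (-1.91, limma adjusted p = 0.00991). In both lines replicate 2 of this gene was the lowest.

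Rpl13a, a ribosomal protein gene whose introns hold small nucleolar RNAs, had the highest mean level of all 9574 genes. It had 56.5, 72.2 and 65.0 TPM in CTCF-AID and 198.5, 192.8 and 123.5 TPM in CCNA-GFP, which did not overlap, and its log2 difference was -1.37 (SE 0.21, limma adjusted p = 0.00641). Under quantile normalisation its difference was 0, since it then took the same rank value in every library. H2afj, which encodes a variant of histone H2A, had 7.63, 5.93 and 5.83 TPM against 19.06, 17.9 and 14.9 TPM. Cdc42bpg, a kinase that acts downstream of CDC42, had 2.46, 2.05 and 2.21 against 6.97, 5.89 and 7.19 TPM. Arrdc3, an arrestin-related adaptor on chromosome 13, had 1.32, 0.785 and 0.784 TPM against 4.57, 2.18 and 3.89 TPM. None of these genes had a CTCF-AID library that reached the CCNA-GFP range, as the rule for naming them required.

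Gene lists were then read against the shares over all genes. Those shares rose with mean level, from 7.73% higher and 7.94% lower in the lowest quartile to 22.0% and 17.1% in the highest. The lists were not matched for level. The list for cholesterol synthesis, which includes fatty acid genes of the same SREBP control, had the largest share of members higher of all lists read: 20 of its 31 tested genes (64.5%, beside 16.1% of all genes) were higher and none lower, with a median log2 difference of 0.38 where the median of all genes was 0.01. Of its 24 members outside chromosomes 1, 8, 11 and 14, 13 were higher, beside 7.64% of all genes outside them. Once the median of each chromosome had been removed, 17 of the list were higher, as were 1073 of all genes. The summed level was 52.3 to 63.6 TPM in CTCF-AID and 36.0 to 37.2 TPM in CCNA-GFP. In asynchronous cells 15 members were higher and none lower, where 13.3% and 8.15% of all genes were.

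Scd1, a desaturase of fatty acids, had 1.37, 1.26 and 1.29 TPM in CTCF-AID and 0.299, 0.218 and 0.206 TPM in CCNA-GFP, a log2 difference of 0.89 (SE 0.06, limma adjusted p = 0.00193). Fdft1, squalene synthase, had 3.80, 3.45 and 3.04 TPM against 1.496, 1.53 and 1.44 TPM, a log2 difference of 0.83, and it lies in the raised stretch of chromosome 14. Scd2, another desaturase, had 6.48, 7.12 and 4.91 TPM against 4.10, 2.27 and 3.06 TPM, a log2 difference of 0.80 (SE 0.18, limma adjusted p = 0.022). For all 3 every CTCF-AID library exceeded every CCNA-GFP library.

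Targets of p53 leaned the other way. Of 23 tested, 10 were lower (43.5%) and 1 higher (4.35%), beside 13.4% and 16.1% over all genes, with a median of -0.30, and 8 were lower in asynchronous cells, where 8.15% of all genes were. The summed level was 78.5 to 85.8 TPM in CTCF-AID and 102.8 to 121.1 TPM in CCNA-GFP. Polk, a translesion DNA polymerase, had 1.41, 1.69 and 1.65 TPM against 3.67, 3.32 and 4.04 TPM, a log2 difference of -0.86 (SE 0.08, limma adjusted p = 0.00237), and it lies in the lowered stretch of chromosome 13. Bbc3, which encodes the pro-apoptotic protein PUMA, had 1.07, 0.690 and 0.704 TPM against 2.52, 1.70 and 1.71 TPM, a log2 difference of -0.70 (SE 0.13, limma adjusted p = 0.0115). Trp53inp1, a regulator of autophagy and cell death, had 8.18, 7.02 and 6.84 TPM against 16.1, 11.7 and 12.3 TPM (-0.77). These 3 genes did not overlap between the lines. The higher member was Trp53, which encodes p53 itself and is named here after its value was seen: it lies on chromosome 11 and had 8.14, 5.97 and 7.88 TPM against 5.09, 5.63 and 5.01 TPM (0.41, limma adjusted p = 0.0449). It was not called once the chromosome medians were removed.

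Among imprinted genes, 4 of 29 tested were higher (13.8%) and 8 lower (27.6%), beside 16.1% and 13.4% over all genes. In asynchronous cells 4 were higher and 6 lower, where 13.3% and 8.15% of all genes were. Grb10, an adaptor that restrains growth factor receptors, had 1.11, 2.64 and 1.67 TPM in CTCF-AID and 0.385, 0.480 and 0.295 TPM in CCNA-GFP, a log2 difference of 0.98 (SE 0.18, limma adjusted p = 0.0115) on chromosome 11. Kcnq1ot1, the antisense RNA of the Kcnq1 imprinted cluster, had 2.46, 4.28 and 3.78 TPM against 6.11, 7.47 and 7.40 TPM (-0.84). Tssc4, from the same cluster on chromosome 7, had 1.45, 0.857 and 1.07 TPM against 3.16, 7.86 and 5.92 TPM (-1.59), and Peg3 differed by -0.84. None of these genes overlapped between the lines.

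Naive and core pluripotency genes gave 4 higher (14.3%) and 1 lower (3.57%) of 28, where all genes gave 16.1% and 13.4%. In asynchronous cells 1 was higher and 2 were lower, where 13.3% and 8.15% of all genes were. None of the 19 members outside chromosomes 1, 8, 11 and 14 was higher in mitosis, beside 7.64% of all genes outside them. Tdh, threonine dehydrogenase, which lies in the raised stretch of chromosome 14, had 16.5, 14.1 and 14.5 TPM in CTCF-AID and 10.7, 8.16 and 8.87 TPM in CCNA-GFP, a log2 difference of 0.65 (limma adjusted p = 0.00992). Zfp42, the naive marker also called Rex1, had 32.2, 19.2 and 32.4 TPM against 15.9, 12.8 and 17.2 TPM, a log2 difference of 0.80 (limma adjusted p = 0.0369), on chromosome 8. Without CTCF-AID replicate 1 its adjusted p was 0.108 and without CTCF-AID replicate 3 it was 0.117. Genes of the formative state gave 3 higher of 11 (27.3%) and none lower. Among them Zic5 had 2.46, 2.05 and 2.09 TPM against 0.470, 1.14 and 0.324 TPM, and Zic2, next to it on chromosome 14, had 3.27, 1.74 and 2.09 against 0.898, 1.09 and 0.412 TPM. Both zinc finger factors were higher in every CTCF-AID library.

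Genes of protein quality control were read next. For the proteasome 14 of 42 members (33.3%) were higher and none lower, beside 16.1% and 13.4% over all genes. In asynchronous cells 8 were higher and 3 lower, where 13.3% and 8.15% of all genes were. Of the 27 members outside chromosomes 1, 8, 11 and 14, 4 were higher in mitosis, beside 7.64% higher and 16.3% lower among all genes outside them. Psmb3, a subunit of the proteasome core on chromosome 11, had 5.26, 5.07 and 5.65 TPM in CTCF-AID and 2.82, 2.44 and 3.01 TPM in CCNA-GFP, a log2 difference of 0.75. Heat shock and endoplasmic reticulum chaperones gave 9 higher (31.0%) and 2 lower (6.90%) of 29, beside 16.1% and 13.4% over all genes. In asynchronous cells 2 were higher and 2 lower, where 13.3% and 8.15% of all genes were. The difference between the stages was not tested for this list. Hspa4, a cochaperone of HSP70 on chromosome 11, had 15.5, 14.8 and 15.9 TPM against 8.42, 8.43 and 8.46 TPM, whereas Hspb1, a small heat shock protein gene on chromosome 5, had 1.30, 0.643 and 0.804 against 2.14, 2.53 and 1.77 TPM. The log2 differences were 0.80 and -0.72, and neither gene overlapped between the lines.

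The integrated stress response list had 6 higher (20.0%) and 8 lower (26.7%) of 30, beside 16.1% and 13.4% over all genes. Ddit3, which encodes the factor CHOP, had 2.16, 1.90 and 1.39 TPM in CTCF-AID and 5.47, 3.84 and 5.04 TPM in CCNA-GFP, a log2 difference of -1.04 (SE 0.14, limma adjusted p = 0.0047). Cth, which makes cysteine from cystathionine, differed by -1.02, and Eprs, a tRNA synthetase on chromosome 1, by 0.83. The list median was 0.01. In asynchronous cells 2 members were higher and 3 lower, where 13.3% and 8.15% of all genes were.

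**Figure D5:**
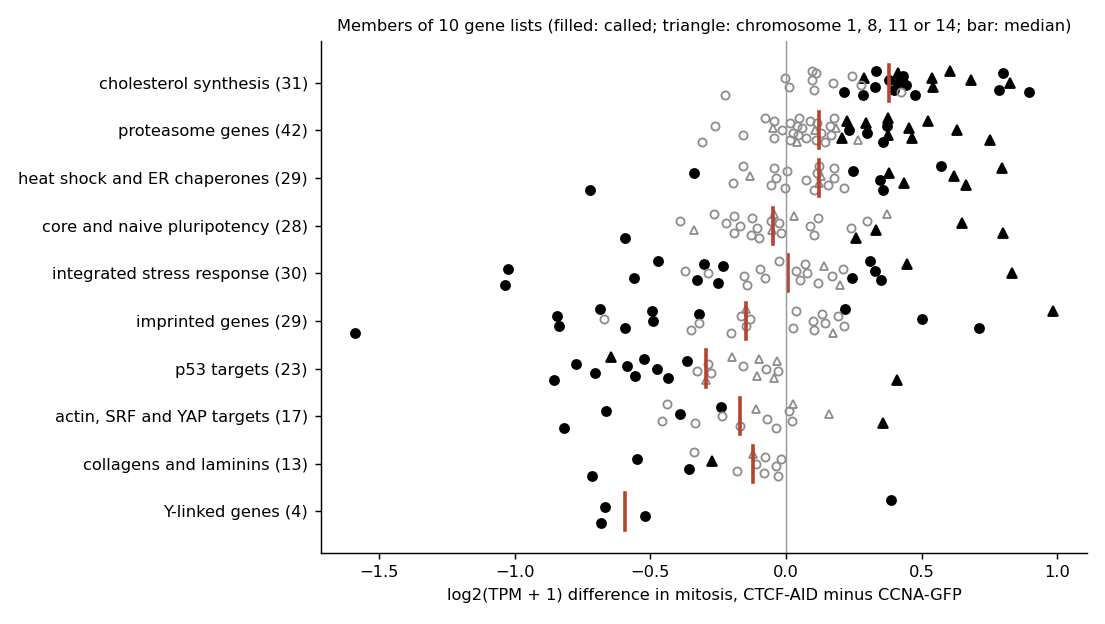
Log2(TPM + 1) difference in mitosis (CTCF-AID minus CCNA-GFP, horizontal axis) of every tested member of 10 gene lists, with filled marks for called genes, triangles for genes on chromosomes 1, 8, 11 or 14 and a red bar at the list median. Medians run from 0.38 for cholesterol synthesis (31 genes) to -0.30 for p53 targets (23 genes) and -0.59 for the 4 Y-linked genes.

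Mitotic cyclins, kinases and kinetochore genes had 5 higher (11.6%) and 4 lower (9.30%) of 43, both below the shares over all genes. Ccnb1, which encodes cyclin B1, had 11.9, 8.90 and 10.1 TPM in CTCF-AID and 17.3, 14.6 and 15.9 TPM in CCNA-GFP, a log2 difference of -0.59 (limma adjusted p = 0.0148), and it lies in the lowered stretch of chromosome 13. Nek2, a centrosome kinase on chromosome 1, had 3.46, 2.83 and 2.86 against 1.62, 1.44 and 1.44 TPM, a log2 difference of 0.69. The lines did not overlap for either gene. G1/S genes gave 6 higher (17.6%) and 4 lower (11.8%) of 34, near the shares over all genes, among them Rb1, the retinoblastoma gene, with 0.395, 0.524 and 0.523 TPM against 1.58, 1.35 and 1.47 TPM. Rb1 lies on chromosome 14 beyond the raised stretch, and its log2 difference was -0.74 (limma adjusted p = 0.00222).

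Chromatin regulators lay near the shares over all genes. Of 31 Polycomb genes 6 were higher (19.4%) and 3 lower (9.68%), led by Phf1 (-0.74) on chromosome 17 and by Pcgf2 and Suz12 on chromosome 11. Suz12, a core subunit of the complex that methylates histone H3, had 11.9, 11.8 and 12.7 TPM against 6.58, 7.20 and 7.37 TPM. Its lines did not overlap and its log2 difference was 0.70 (limma adjusted p = 0.00287). DNA methylation genes gave 3 higher (16.7%) and 2 lower (11.1%) of 18. Dnmt3a, a de novo methyltransferase, had 0.583, 0.619 and 0.764 TPM against 0.385, 0.393 and 0.354 TPM, a log2 difference of 0.26 (limma adjusted p = 0.0215).

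Large families were read beside the 16.1% higher and 13.4% lower over all genes. Cytosolic ribosomal proteins gave 10 higher and 10 lower of 79 (12.7% each) and mitochondrial ribosomal proteins 11 and 11 of 74 (14.9% each). Zinc finger proteins gave 28 higher (10.4%) and 32 lower (11.9%) of 269, and solute carriers 22 higher (12.9%) and 28 lower (16.4%) of 171. Genes of oxidative phosphorylation gave 11 higher (13.9%) and 5 lower (6.33%) of 79. Glycolysis and hypoxia genes gave 3 higher of 29 (10.3%) and none lower. Collagens and laminins gave none higher and 4 lower of 13 (30.8%), among them Lama5, a basement membrane laminin, with 4.00, 4.24 and 3.20 TPM in CTCF-AID against 5.86, 8.47 and 6.48 TPM in CCNA-GFP. Actin, SRF and YAP genes gave 1 higher (5.88%) and 4 lower (23.5%) of 17, among them Actb, cytoplasmic actin, with 6.24, 5.19 and 5.57 against 9.45, 10.2 and 9.02 TPM. Long noncoding RNAs gave 2 higher (10.0%) and 5 lower (25%) of 20.

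The Rosa26 transcript, a locus often used for transgenes, was lower. Gt(ROSA)26Sor (chr6:113067428-113077333) had 6.01, 7.54 and 6.07 TPM in CTCF-AID and 11.3, 17.6 and 12.7 TPM in CCNA-GFP, a log2 difference of -0.96 (SE 0.17, limma adjusted p = 0.00895). The lines did not overlap. Where the Tir1 or reporter transgenes sit was not given in the sources used here. The other 2 genes tested beside it were not called.

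Of 14 microRNA genes tested 1 was higher (7.14%) and 3 lower (21.4%) in CTCF-AID, beside 16.1% and 13.4% over all genes. Values for these short annotated genes come from total RNA libraries and are no measure of mature microRNAs. The mature products of the 3 lower genes are shown from RefSeq (GRCm38.p6), 5′ to 3′, with the seed (bases 2 to 8) in capitals, since the seed decides which messages a microRNA pairs with, and no seed is shared among them.
miR-101a-3p (chr4:101346957-101346977, minus strand): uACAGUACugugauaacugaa
miR-101a-5p (chr4:101346993-101347014, minus strand): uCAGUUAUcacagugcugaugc
miR-298-5p (chr2:174267553-174267575, minus strand): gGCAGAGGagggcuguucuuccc
miR-298-3p (chr2:174267512-174267535, minus strand): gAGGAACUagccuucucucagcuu
miR-1946b (chr9:21613452-21613477, minus strand): gCCGGGCAgugguggcacaugcuuuu

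Mir101a had 0.977, 1.24 and 0.503 TPM in CTCF-AID and 2.65, 2.53 and 1.68 TPM in CCNA-GFP, a log2 difference of -0.79 (SE 0.17, limma adjusted p = 0.0201). Mir1946b had 0.959, 0.619 and 0.523 against 1.54, 1.48 and 1.27 TPM, a log2 difference of -0.52 (limma adjusted p = 0.0149). Neither overlapped between the lines. Mir298 had 3.40, 5.02 and 4.02 against 6.24, 5.41 and 8.37 TPM, a log2 difference of -0.57 (limma adjusted p = 0.0483). Its adjusted p lay between 0.105 and 0.132 without CTCF-AID replicate 1, CTCF-AID replicate 3, CCNA-GFP replicate 1 or CCNA-GFP replicate 3. Mir3078 on chromosome 14, the higher gene, lay under 0.4 TPM in every library.

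The comparison in asynchronous cells used separate libraries of the same lines. There 1275 genes were higher in CTCF-AID (13.3% of genes tested) and 780 lower (8.15%). Of the 1541 genes higher in mitosis, 963 were also higher in asynchronous cells, which is 62.5% of the mitotic and 75.5% of the asynchronous list, and 1486 had the same sign. Of the 1279 lower in mitosis, 507 were also lower, which is 39.6% of the mitotic and 65% of the asynchronous list, and 1226 had the same sign. 1 gene, Insl3, which encodes an insulin-like hormone and lies on chromosome 8, was called in opposite directions. Mitotic and asynchronous libraries of a line share replicate numbers, so these shares are a description. Without CCNA-GFP asynchronous replicate 1 the asynchronous counts were 724 and 321, the lowest of the 6 omissions.

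The difference between the stages was tested as an interaction over the 12 libraries, with the replicate within its line as a block. It was more positive in mitosis for 11 genes (0.115%) and more negative for 12 genes (0.125%), while 1636 genes had an unadjusted p under 0.05. Tmem161a on chromosome 8 had 4.47, 4.12 and 3.92 TPM in mitotic CTCF-AID cells and 1.24, 1.22 and 1.27 TPM in mitotic CCNA-GFP cells, a line difference of 1.20 in mitosis where it was 0.23 in asynchronous cells (interaction 0.98, limma adjusted p = 0.0192). Wdr77, a partner of the arginine methyltransferase PRMT5, had 8.06, 6.33 and 7.72 TPM against 3.12, 3.23 and 2.45 TPM in mitosis, with line differences of 1.09 and 0.05 in the 2 stages. Both genes were well separated in mitosis. Rbm4, an RNA-binding splicing regulator, had 2.58, 0.785 and 1.81 TPM in mitotic CTCF-AID cells and was listed at 0 in all 3 mitotic CCNA-GFP libraries, while in asynchronous CCNA-GFP cells it had 2.95, 2.19 and 5.67 TPM. Without the block 3 and 0 genes were called, and without CCNA-GFP mitotic replicate 1 none was, so these calls depended on single libraries.

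Genes that responded to IAA were then read in the untreated line comparison. In asynchronous CTCF-AID cells, 67 genes (0.7%) were lower and 19 (0.198%) higher with IAA by the same test, and the libraries are not those of the mitotic comparison, though the untreated ones belong to the same line. In mitotic cells 0 genes were called for IAA by limma, with 79 at an unadjusted p under 0.05. Libraries with and without IAA share replicate numbers, and no alternative to this mitotic fit is reported here. The asynchronous counts fell to 1 and 0 without the +IAA replicate 1 library. Of the 67 genes lower with IAA, 19 were higher (28.4%) and 3 lower (4.48%) in untreated mitotic CTCF-AID cells than in CCNA-GFP cells, with a median log2 difference of 0.10. Of these 67, 19 lie on chromosomes 1, 8, 11 and 14, which hold 23.2% of all genes tested. On those chromosomes 44.1% of all genes were higher. The higher genes of this group include Agfg1, Csnk2a2, Got2, Polr2c, Lrrc59, Nle1, Tbc1d9b, Cdkn2aipnl, Rabggta and Ttc5 there. Others, among them Alg5, Cep135 and Pabpc4, lie elsewhere. The part of the chromosome shifts in these shares was not tested. Of the 19 genes higher with IAA, 4 were higher and 3 lower in the line comparison. Over all genes the shares were 16.1% higher and 13.4% lower.

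Promoters were then searched for the core of the CTCF motif, written as CC, any 3 bases, AG, any 2 bases and GGC, on either strand. The window was the RefSeq sequence from 250 bases before to 50 bases after the start. It was found in 22 of the 53 genes lower with IAA that have a promoter in the table (41.5%), in 5 of the 17 higher with IAA (29.4%), in 8.56% of all 27025 promoters and in 13.6% of the 7692 tested genes with one. Among genes higher in mitotic CTCF-AID cells the share was 14.2% and among genes lower it was 12.9%, both near that of all tested genes. A match is a run of letters and not a measured site. The following 30-base windows, picked after their values were seen, come from genes called both for IAA and between the lines, with the match in capitals, 5′ to 3′ on the strand of the gene.
Agfg1 (chr1:82839369-82839398, plus strand): tcctcccggCCAGCAGAGGGCgccagcctg
Fam133b (chr5:3543757-3543786, plus strand): tcctccgcaCCACCAGGGGGCgccgtggcg
Rab12 (chr17:66519761-66519790, minus strand): gtcctccgaCCGACAGGGGGCgggctccag
Wdr41 (chr13:94976302-94976331, plus strand): agcgcacgcCCACTAGGGGGCgcccgagcg
Wdr70 (chr15:8099267-8099296, minus strand): ccctccgcaCCGCTAGGGGGCgagagtccg

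Agfg1, Fam133b and Rab12 fell with IAA by 0.52, 0.44 and 0.63 on the log2 scale and were higher in untreated mitotic CTCF-AID cells than in CCNA-GFP cells, by 0.55, 0.29 and 0.38. Rab12, a small GTPase gene in the raised stretch of chromosome 17, had 1.52, 1.71 and 1.89 TPM in CTCF-AID and 1.11, 0.960 and 1.15 TPM in CCNA-GFP. Wdr70 fell with IAA by 0.39 and was also lower in the untreated line, with 1.22, 1.76 and 1.53 TPM against 2.35, 2.14 and 2.42 TPM (log2 difference -0.40, limma adjusted p = 0.0226). Wdr41, in the lowered stretch of chromosome 13, fell with IAA by 0.44 and had 0.733, 0.690 and 0.845 TPM against 1.33, 0.960 and 1.24 TPM (-0.31, limma adjusted p = 0.0381). The lines did not overlap for Rab12, Wdr70 or Wdr41.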

How the data were processed

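Pre-mRNA was measured by stranded, paired-end sequencing of ribosome-depleted RNA. Reads were aligned to mm10 with STAR and quantified with RSEM on Gencode vM12 with a pre-mRNA isoform added to each gene (software versions: not given in the sources used here). The authors deposited TPM for curated RefSeq genes with a mean above 0.5 TPM in asynchronous cells or in several of the samples after mitosis, 1 table per line; the deposited TPM carry 1 undescribed factor per library. In the CTCF-AID table the asynchronous columns have a corrupted stage name ending in "sy", and were read as asynchronous because all other stages are spelled out. TPM keep no read depth, so counting error is unknown. The 6 mitotic libraries summed to 13640 to 23072 TPM over shared genes. 100 genes held 8.82% to 9.88% of each total, Spearman's rho was 0.935 to 0.980 within and 0.867 to 0.912 between lines, and no pair held identical values.

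Each library was scaled to the same total over the 9574 shared genes (17926 TPM), and log2(TPM + 1) was fitted with limma 3.58.1 (lmFit, eBayes with trend; R 4.3.3), unpaired and two-sided, with Benjamini-Hochberg adjustment over all genes. A fold on this scale understates the change of low genes. Genes were called at adjusted p under 0.1 and a log2 difference over 0.2. Same-numbered libraries deviated together (r = 0.43, 0.61 and 0.43 between lines), so the replicate block was an alternative. Positions came from Gencode vM21 (GRCm38, as mm10), which matched 9563 symbols; 11 did not match. Promoters, microRNAs and motifs came from RefSeq.

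On simulated data with 200 changed genes, the mitotic fit recovered 100% of differences of 1 and 16% of differences of 0.3, with 12.7% and 18.0% false among calls. The simulated libraries had independent noise and few changed genes, whereas 2820 genes were called here and same-numbered libraries deviated together. These shares therefore do not give the recovery or the false calls of the real comparison. Named genes were Ctcf and Ccna2, the 12 called genes without overlap at each end, up to 4 called members per list, Y-linked and core pluripotency genes and the 5 interaction genes at each end; results for some of these genes are not reported here. The members, lists and rules were chosen with earlier results of these data known. Alternatives changed the pseudocount, scaling, filter, trend, block, libraries, thresholds and chromosomes included.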

Additional observations from a re-analysis of the deposited data

Results flagged for a closer look

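The results listed here drew attention because the line difference itself differed between mitotic and asynchronous cells, by the interaction term in limma over 12 libraries. It was more positive in mitosis for 11 genes and more negative for 12 genes. The most positive interactions on the log2 scale were 2.15 for Rbm4 (limma adjusted p = 0.0683), 1.04 for Wdr77 (0.0271), 0.98 for Tmem161a (0.0192), 0.83 for Abhd11os (0.0865) and 0.68 for Pkmyt1 (0.0865). The value for Rbm4 is a fitted one and no bound, since the gene was listed at 0 in all mitotic CCNA-GFP libraries. The most negative were -0.96 for AA388235 (limma adjusted p = 0.0469), -0.95 for Insl3 (0.0469), -0.82 for Gm13648 (0.0865) and -0.82 for Mup6 (0.096).

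Pkmyt1, the kinase that holds CDK1 inactive, had 1.94, 1.98 and 1.67 TPM in mitotic CTCF-AID cells and 0.855, 0.655 and 0.707 TPM in mitotic CCNA-GFP cells, with a line difference of 0.03 in asynchronous cells. Insl3 had 1.82, 2.83 and 2.15 TPM against 4.23, 3.97 and 3.39 TPM in mitosis, while its line difference in asynchronous cells was 0.37. Both genes were separated by line in mitosis. No group held 4 or more libraries, so no library was tested for standing apart from its group.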

How the results depend on the processing

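Main mitotic counts were 1541 higher and 1279 lower. Counts moved by more than 1.5 times with TPM as deposited and no rescaling (4133 and 296), without chromosomes 1, 8, 11 and 14 (529 higher), with these left out and the rest rescaled (953 and 707; chosen after seeing the data) and at adjusted p under 0.05 with a log2 difference over 1 (14 and 25). Median-of-ratios scaling (1434 and 1431), quantile normalisation (1523 and 1303), a pseudocount of 0.1 (1714 and 1393), a mean of at least 1 TPM (1145 and 945), no trend (1550 and 1278), all untreated libraries in the fit (1693 and 1492) and removal of chromosome medians (1073 and 1297; added later) kept within it. Leaving out each library gave 1109 to 1657 higher and 798 to 1538 lower. With the replicate block as pairing, 1887 and 1751 genes were called, including all 1541 and 1279, and it changed no other call among named genes than that of Nanog.

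Interaction counts (11 and 12) became 5 and 3 with a pseudocount of 0.1, 3212 and 53 with no rescaling, 23 and 26 at a mean of at least 1 TPM, 3 and 0 with no replicate block in place of the pairing and 1 and 0 under the strict thresholds. The more negative count was 19 with median-of-ratios scaling and 4 with quantile normalisation. Leaving out each library gave 0 to 21 and 0 to 45. Asynchronous counts (1275 and 780) ran from 724 to 1347 and from 321 to 997 without each library, and those for IAA (19 and 67) from 0 to 9 and from 1 to 32.

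Chromosome medians grew with a pseudocount of 0.1 to 0.45, 0.37, 0.42 and 0.21 on chromosomes 1, 8, 11 and 14 and to -0.80 on chromosome Y, and at a mean of at least 1 TPM to 0.35, 0.28, 0.31 and 0.12. Median-of-ratios scaling gave 0.19 on chromosome 8. On chromosome 14 leaving out each library gave 0.060 to 0.11. The cause of these shifts was not tested. Of 143 named genes called, 90 kept their call in every setting; 5 to 28 lost it when 1 library was left out. Lamc1 and Eif1a reversed to 0.080 and 0.077 under TPM as deposited. The limits are the 3 libraries per line, the line confounded with table and batch, and read depth that TPM do not show.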
